A study of Xenopus tropicalis with 39 samples.

Results

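The transcripts described here are 150 long non-coding RNA (lncRNA) models of the frog Xenopus tropicalis. In polyA RNA they were nearly absent at the 8-cell stage and among the most abundant of their kind at stage 10.5, the early gastrula. They were taken from 5684 lncRNA models among 32234 features in each expression table, the others being 26550 gene models. They were chosen by measured levels in 3 steps. A model had to average under 0.5 TPM (transcript level scaled for model length and to a fixed total in each library) over the 9 libraries of 8-cell embryos and blastomeres, which 4155 models did. Then 48 of these were left out because their TPM + 0.5 rose at least 3-fold in both replicates when 500 ng vegt RNA was injected. The remaining 4107 were ranked by the higher of their mean TPM in uninjected animal caps and in uninjected vegetal masses, and the top 150 were taken. A pair of them, lncrna-candidate-sw-29786 and lncrna_single_n_00106871, had identical values in all 33 RNA libraries, so the 150 members hold 149 distinct profiles. That pair is mass-sided and counts as 2 members in each count that holds it.

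In the frog embryo the egg's stored maternal RNAs direct the first cleavages, and the embryo's own genome is switched on broadly only around the mid-blastula stage. A transcript that is absent from the cleaving egg and present at gastrulation is therefore called zygotic. The libraries were made from polyA RNA, so a maternal RNA without a polyA tail at cleavage would be under-represented. The word zygotic here rests on a low level in polyA RNA at cleavage. Whether maternal copies without a tail were present was not tested. LncRNAs are transcripts without a recognised long protein-coding frame. They vary widely in what they do, and many are produced in a restricted set of tissues or stages. Vegt is a T-box transcription factor whose maternal RNA lies at the vegetal side of the egg and is needed for endoderm formation. Otx1 is a homeodomain transcription factor of the orthodenticle family.

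Animal caps are the putative ectoderm and vegetal masses the putative endoderm. Both were cut from embryos at stage 9 (6 hours after fertilisation) and collected at stage 10.5 (7 hours). The 16 cap libraries formed 8 groups of 2, which were uninjected, vegt RNA alone at 50, 100, 200 or 500 ng, and 100 ng vegt RNA with 25, 50 or 100 ng otx1 RNA. The 8 mass libraries formed 4 groups of 2, which were uninjected, Vegt morpholino (MO, a synthetic antisense oligonucleotide used to keep an RNA from being translated or spliced), Otx1 MO and both together (Double MO). Injections were made at the 1-cell stage, the RNA amounts are printed in ng as the labels give them although pg may have been meant, and the controls were uninjected embryos with no control RNA or control MO. No strain or mutant allele is given, and nothing in the labels says how many explants went into a library. The series design calls the duplicates biological, and replicate numbers may mark clutches, which the labels of the explants do not state.

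Assigned counts per explant library ranged from 8289891 to 18201262. The lowest and the highest were the first and second replicates of the same group, 100 ng vegt with 100 ng otx1. Gene symbols do not accompany the identifiers in these tables, and 0 of 150 members were found in the reference table of 28858 genes, so members are named by identifier only, their positions and sequences are not given, and the tissue and cell type markers and the targeted genes could not be followed by name. In whole explants, fewer cells of a type and less RNA per cell cannot be told apart. Libraries with the same replicate number deviated together, with correlations of 0.69 to 0.90 between cap groups and 0.71 to 0.81 between mass groups, so each result is given from a fit without the number and from one with the number as a block.

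At the 8-cell stage the 150 members together reached only 8.71 to 32.7 TPM in any library. In the uninjected explants they reached 7762 and 5941 TPM in caps and 5961 and 5142 TPM in masses. At the 8-cell stage, 19 members had no reads in any of the 9 libraries, 36 exceeded 1 TPM in at least 1 library, and the highest single value was 2.61 TPM. These levels chose the members and are a description. At the edge of the ceiling, the highest averages kept were 0.47 and 0.49 TPM and the lowest left out were 0.51 and 0.51 TPM. At the edge of the ranking, the last 2 inside both stood at 8.23 TPM, and the first 2 outside at 7.96 and 7.89 TPM. At the edge of the vegt ratio, the smaller replicate ratios were 2.92 and 2.97 for the last kept and 3.06 and 3.12 for the first left out.

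The levels were very uneven. The ranking level had a median of 17.9 TPM, 19 members reached 100 TPM, 34 reached 50 TPM and 125 reached 10 TPM. In the tissue that ranked it, the median member had 130 assigned counts, 63 members had under 100 and 3 had under 20, so the lower members are measured with large counting error. TPM divides by length, and the members were short. Their effective length was read from the ratio of count to TPM, in libraries with at least 10 counts and 0.1 TPM of a model. It had a median of 0.42 times that of the median gene model. The median was 0.72 for 1283 of 1529 lncRNA models at or above the 8-cell ceiling and 1.15 for 1722 lower-ranked zygotic lncRNA models. All 150 members had such a reading, but many lower-ranked models did not. At a low TPM only longer models reach 10 counts, so the 1.15 is not a like comparison. Gene models passing the same rule at the same level were also short, at 0.53. Ranking by a level per length favours short models, and its part in these lengths was not tested. By the form of the identifier, 74.7% of the members were of the lncrna_single_sw kind, against 63.7% of all lncRNA models, and 12% were of the lncrna-candidate-sw kind, against 22.1%. The files do not say what these forms stand for.

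One member was the highest in uninjected caps and another in uninjected masses. The most abundant, lncrna_single_sw_00158769, stood at 3604 and 1811 TPM in the 2 uninjected caps and at 18.3 and 14.8 TPM in the uninjected masses, so the tissues did not overlap. It made up 39.5% of the summed member level in uninjected caps. The second, lncrna_single_sw_00264980, was its mirror image, with 1304 and 640.4 TPM in the uninjected masses and 0 and 1.41 TPM in the uninjected caps. It made up 17.5% of the summed level in uninjected masses.

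Among the other 8 of the 10 most abundant, the replicates of the tissues overlapped for 1 member only. In caps, lncrna_single_sw_00241828 had 767 and 622 TPM against 118 and 269 in masses. Its neighbour in rank, lncrna_single_n_00043235, had 391 and 302 TPM in caps against 76.1 and 79.7 in masses. A wider gap was seen for lncrna_single_sw_00235051, at 149 and 227 TPM in caps and 3.92 and 13.7 TPM in masses. In the opposite direction, lncrna_single_sw_00247476 had 50.98 and 82.7 TPM in caps against 370 and 368 in masses, the closest agreement between replicates among these. The duplicates of the 2 tissues also lay apart for lncrna_single_sw_00113344, with 152 and 90.8 TPM in caps and 380 and 241 in masses, and for lncrna_single_sw_00259851, with 26.5 and 3.82 in caps and 235 and 201 in masses. The gap was narrow for lncrna_single_sw_00135663, whose caps had 239 and 151 TPM and masses 96.7 and 112. The tissues overlapped for lncrna_single_sw_00085961, with 241 and 420 TPM in caps and 153 and 510 TPM in masses.

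Sorted by the ratio of mean TPM + 0.5, 39 members were at least 2-fold higher in uninjected caps (cap-sided), 89 were at least 2-fold higher in uninjected masses (mass-sided), and 22 lay between. Among the mass-sided members 50 differed by at least 8-fold and 40 averaged under 1 TPM in caps. Among the cap-sided members 13 differed by at least 8-fold and 5 averaged under 1 TPM in masses. The replicates of the tissues did not overlap for 126 members, 39 with caps above and 87 with masses above, and overlapped for 24. Of the 10448 gene models reaching the level of the last member, 25.8% had caps above and 37.5% masses above without overlap. The median log2 ratio of caps to masses was -1.71. It was -1.03 for the 463 gene models that pass the same rule at the same level, of which 33.7% were cap-sided and 50.3% mass-sided, and -0.15 for all 10448 gene models at that level, of which 16.4% and 25.8% were. The rule used both uninjected levels and the tables were normalised separately, so this split is a description with no test.

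**Figure D1:**
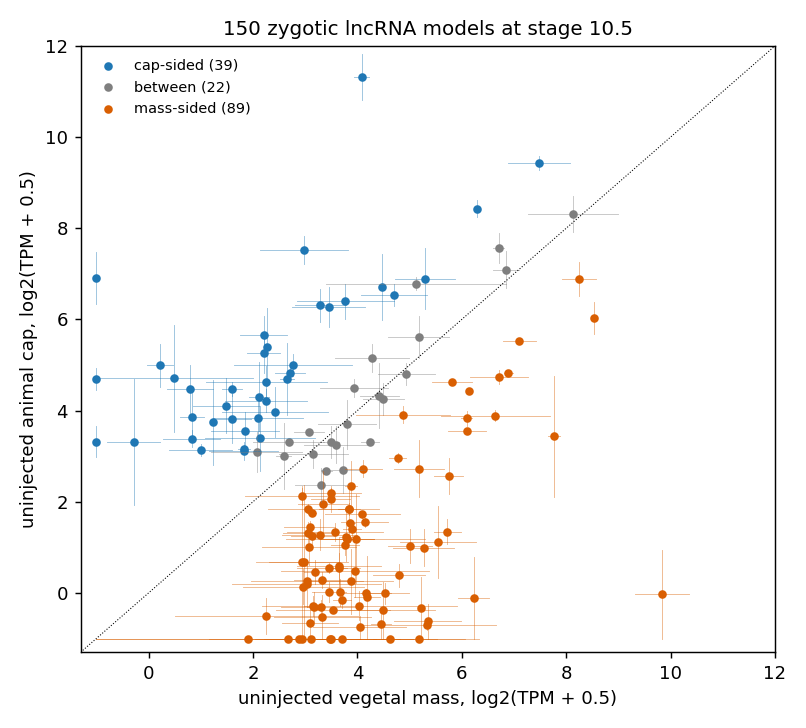
Levels of the 150 members in uninjected animal caps (vertical) and uninjected vegetal masses (horizontal), both as log2(TPM + 0.5), with points at the mean of the 2 replicates' log2 values and lines spanning the replicates. Of the 89 mass-sided members, 40 averaged under 1 TPM in caps and lie low in the plot. The others spread upward, to 121 TPM in caps for lncrna_single_sw_00113344. A single cap-sided member stands far above the other cap-sided ones.

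Some extremes of the split were close to all-or-none. The most cap-sided was lncrna_single_sw_00183422, with 178 and 80.1 TPM in uninjected caps and no reads in either uninjected mass. It had no reads in 7 of the 8 mass libraries and 1.03 TPM in the other, an Otx1 MO library. Next was lncrna_single_sw_00158769, which was not all-or-none, since it averaged 16.5 TPM in uninjected masses. After lncrna_single_sw_00264980, the most mass-sided was lncrna-candidate-sw-33138, with 15.7 and 100.2 TPM in masses and 0.07 and 0.16 TPM in caps. Breadth varied as well: 69 members reached 1 TPM in all 24 explant libraries, the median member did so in 23, and the narrowest in 2.

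In the fit with the replicate block, a small set of members was lower in animal caps with added otx1 RNA, and none was higher past the threshold. The caps with 100 ng vegt and 100 ng otx1 were compared with the caps given 100 ng vegt alone, 2 groups that the rule did not use. These groups also differed in the total amount of injected RNA, with no control RNA, and its part was not tested. Of 121 members with enough counts to be tested in caps, 0 were higher and 7 were lower with the replicate block (edgeR's quasi-likelihood test, Benjamini-Hochberg adjusted p under 0.05 over all features), while 0.562% of all 16360 features were called, 0.269% as lower. The other 29 members, all mass-sided, were too low in caps to be tested. Without the block edgeR called 0 of 16360 features, with 13 of 121 members and 2.59% of all features at an unadjusted p under 0.05. DESeq2 without the block called 4 members, all lower, and 0.257% of all features. The 7 calls with the block became 0 without the second library of 100 ng vegt alone, and 2 without the first or without the first library of 100 ng otx1.

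A trend over 0, 25, 50 and 100 ng otx1 called 8 members, all lower, with the block, where 0.752% of all features were called and 0.348% were lower, and 7 of these 8 were the members called at 100 ng. At 25 and at 50 ng otx1 no member was called (0 of 121 with the block by edgeR), where 0.0428% and 0.116% of all features were. Of the 8, 6 were cap-sided and 2 lay between. None of the 60 tested mass-sided members was among them, and whether the sides differed was not tested. Fitted log2 changes of the 7 ran from -1.91 to -0.90 with a median of -1.04, and for each of the 7 both libraries with 100 ng otx1 lay below both without. The 7 were called from these same libraries, so their order is a description. The share of all features with such an order is not given. The median log2 change of all 121 tested members was -0.16 and that of all features 0.01. For the gene models passing the same rule, 4 of 366 were higher and 7 lower, and for lncRNA models above the 8-cell ceiling 0 of 1099 were higher and 1 was lower.

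The steepest fall among the called members was that of lncrna-candidate-n-2748. In caps with 100 ng vegt alone it stood at 17.2 and 17.9 TPM, at 16.3 and 9.65 once 25 ng otx1 was added, at 8.62 and 5.22 for 50 ng and at 4.74 and 4.39 TPM for 100 ng. The level was thus lower at each step in both replicates. The log2 change at 100 ng was -1.91 ± 0.29 (SE, n = 2 per group; edgeR with the block, adjusted p = 0.016; 0.29 without the block). The same member was also lower in caps with more vegt alone, from 21.3 and 29.9 TPM uninjected to 20.4 and 21.9 (50 ng), 14.2 and 12.6 (200 ng), then 7.77 and 6.73 (500 ng). In masses it was near 0, between 0 and 0.42 TPM in the 8 libraries.

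A different course was followed by lncrna_single_sw_00088306, which rose with vegt and was lower when otx1 was added. Uninjected caps had 66.9 and 35.3 TPM, which became 102 and 55.4 with 50 ng vegt, 101 and 92.5 with 100 ng, 137 and 105 with 200 ng, then 159 and 119 with 500 ng. Adding otx1 to 100 ng vegt gave 80.1 and 78.9 TPM for 25 ng, 81.3 and 71.1 for 50 ng, then 44.5 and 40.2 for 100 ng, values between its 2 uninjected levels. The log2 change at 100 ng otx1 was -1.15 ± 0.18 (SE, n = 2 per group; edgeR with the block, adjusted p = 0.015; 0.56 without the block).

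Likewise, lncrna_single_sw_00263240 went from 37.6 and 26.5 TPM in uninjected caps to 60.2 and 82.2 with 100 ng vegt and back to 35.3 and 30.0 with 100 ng otx1 added. Its log2 change per doubling of the otx1 amount + 25 ng was -0.46 ± 0.08 (SE; edgeR with the block, adjusted p = 0.015; 0.46 without). In all, 4 of the 8 members lower with added otx1 were called higher at both 200 and 500 ng vegt against uninjected caps with the block. At these doses 1.34% and 4.22% of all features were called. The rule used the uninjected and the 500 ng caps, so those vegt values are a description.

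**Figure D2:**
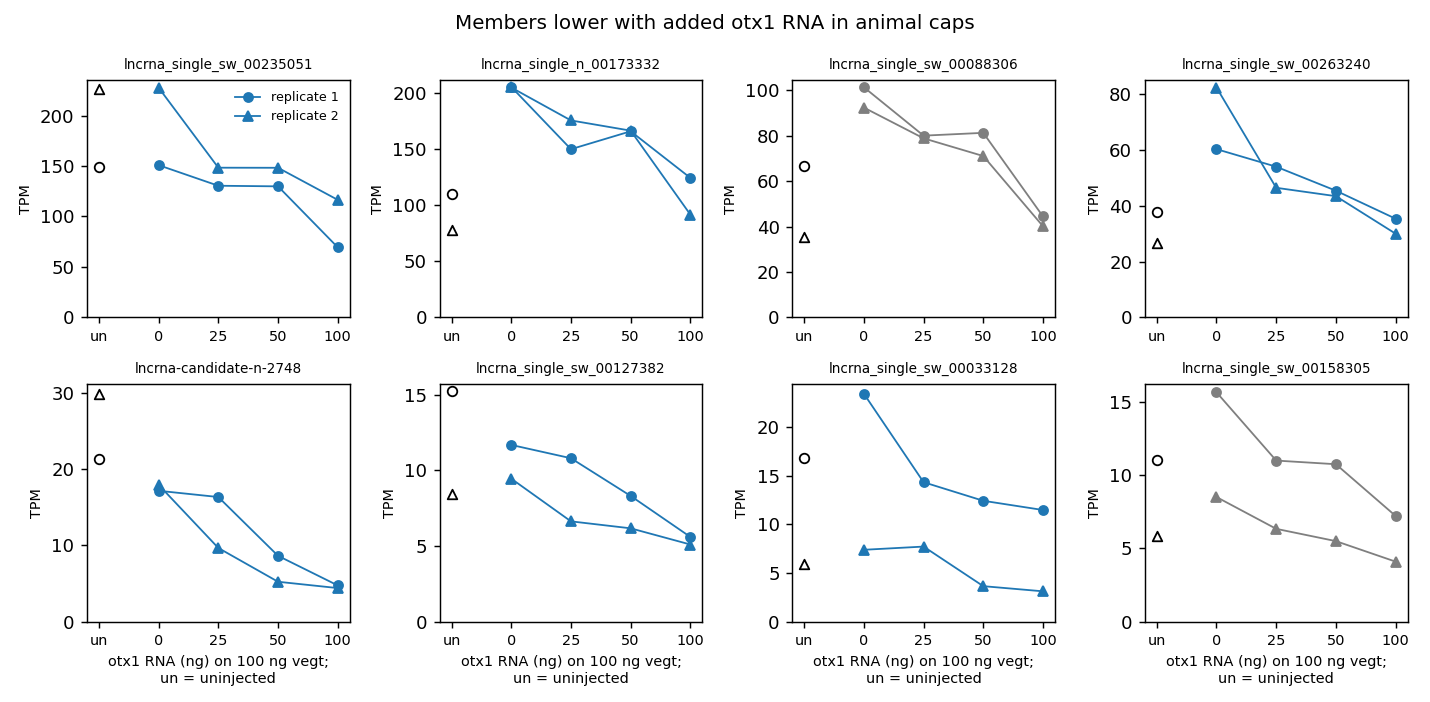
TPM in animal caps of the 8 members lower with added otx1 RNA, by otx1 amount on 100 ng vegt RNA (filled symbols joined by lines, 1 line per replicate) and in uninjected caps (open symbols); blue panels are cap-sided members and grey ones lie between the tissues. At 100 ng otx1 each line is at its lowest, and for lncrna-candidate-n-2748 both lines end near 4.74 and 4.39 TPM.

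The mass-sided lncrna_single_sw_00264980 moved the opposite way in caps, from a level near 0. It stood at 0.13 and 0.26 TPM with 100 ng vegt alone, 0.12 and 1.76 with 25 ng otx1, 2.42 and 3.38 with 50 ng and 10.6 and 4.53 with 100 ng. At 100 ng both libraries lay above all other cap libraries, yet the change did not pass the threshold (edgeR, adjusted p = 0.080 with the block and 1 without). Its highest cap level remained far under its lowest level in masses, 342 TPM. The top member, lncrna_single_sw_00158769, differed little with otx1, with 4465 and 1704 TPM at 100 ng vegt alone and 3594 and 1414 with 100 ng otx1 (log2 change -0.25 ± 0.18, SE; edgeR with the block, adjusted p = 0.76). In lncrna_single_sw_00183422 the first replicate at 100 ng otx1, the shallowest library, read 633 TPM and the second 51.9, against 228 and 70.9 with vegt alone.

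More vegt RNA gave no member past the threshold between 200 and 50 ng, the highest and lowest of the vegt doses that the rule did not use. With the block 0 of 121 members were called and 0.0122% of all features, 2 in number, and without it 0 of both (edgeR). At an unadjusted p under 0.05 stood 19 members with the block, against 4.35% of all features, and 10 without it, against 1.17%. DESeq2 called 0 members without the block, among 0.0122% of all features, and 1 with it, among 0.41%. The median log2 change of the members was 0.16, against 0.00 for all features. For the mass-sided members it was 0.26. All members were read in the same libraries and are not replicates of a dose, and these shifts were not tested.

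Against uninjected caps, which ranked the members, the following is description. With the block, 3 members were higher at 100 ng and 12 at 200 ng, with none lower at either, while 0.434% and 1.34% of all features were called. At 500 ng, 19 were higher and 4 lower, with 4.22% of all features called. Without the block 0, 3 and 5 were higher and 0, 0 and 1 lower at these doses (edgeR), with 0%, 0.153% and 0.801% of all features called. The rule had removed the strongest responders to 500 ng. The members just under that line rose with dose: lncrna_single_n_00173332 went from 110 and 78.2 TPM in uninjected caps to 205 and 138 (50 ng), 206 and 205 (100 ng), 288 and 253 (200 ng), then 321 and 257 (500 ng). A parallel course was seen in lncrna_single_sw_00267705, from 101 and 61.2 TPM to 169 and 106, 169 and 173, 244 and 209, and 265 and 217 over the same doses. At a lower level, lncrna-candidate-sw-15653 went from 6.14 and 3.49 TPM to 18.5 and 14.5 at 500 ng. Summed over the 150, the level was 12272 and 9053 TPM at 500 ng vegt against 7762 and 5941 uninjected.

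**Figure D3:**
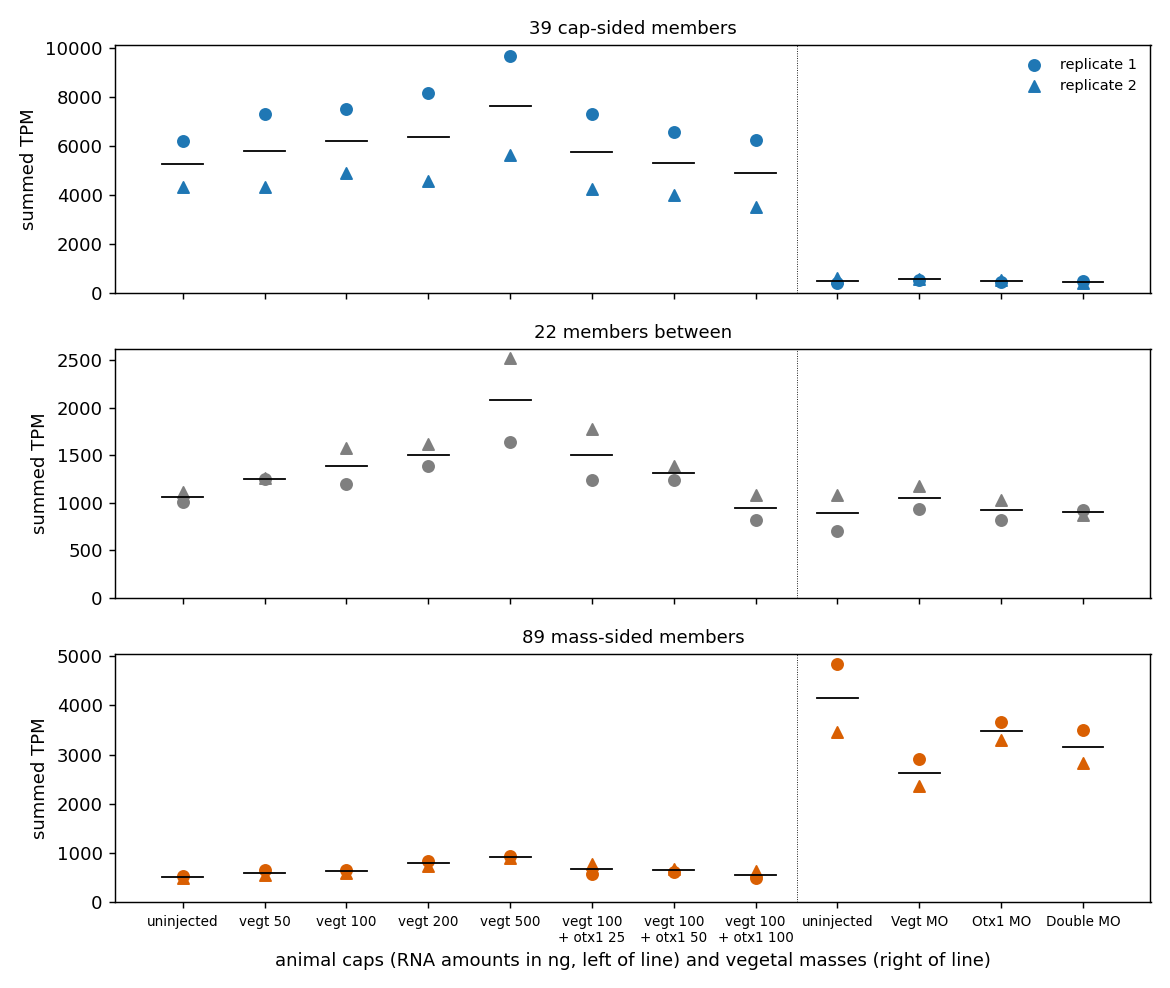
Summed TPM of the 39 cap-sided, 22 intermediate and 89 mass-sided members in each explant library, with circles for replicate 1, triangles for replicate 2 and bars for the mean. The cap-sided sum in caps is higher in replicate 1 of all 8 groups. Of it, lncrna_single_sw_00158769 alone holds 3550 to 5712 TPM in replicate 1 and 1277 to 1811 in replicate 2. Summed over all other members the order is mixed, with 4158 and 4130 TPM in uninjected caps and 4916 and 5412 at 100 ng vegt. The mass-sided sum in masses was 4833 and 3451 uninjected and 2910 and 2359 with Vegt MO. It was 3663 and 3304 with Otx1 MO and 3489 and 2833 with Double MO. The uninjected mass levels helped to choose and sort these members, so these sums are a description.

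In vegetal masses, the largest number of member calls came from the direct comparison of Vegt MO with Otx1 MO, groups that the rule did not use. Of 143 members tested in masses, 12 were higher and 18 lower in Vegt MO than in Otx1 MO with the block (edgeR, adjusted p under 0.05), which is 21.0%, where 9.13% of all 16269 features were called, 3.62% as higher and 5.51% as lower. Each of the 30 went the same way in both pairs, and for 29 the groups did not overlap. The 30 were called from these same libraries, so this describes the calls and adds no support to them. The share of all features that did so is not given. Without the block 0 members and 0.129% of all features were called, with 30 members and 8.55% of all features at an unadjusted p under 0.05. DESeq2 without the block called 6, of which 5 were higher and 1 lower, and 1.99% of all features. The calls depended on which library was left out. Far fewer remained without either Vegt MO replicate or without the second Otx1 MO replicate. Most remained without the first Otx1 MO replicate.

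By tissue side, the 33 tested cap-sided members had 4 higher and 1 lower, with a median log2 ratio of 0.39 for Vegt MO over Otx1 MO. The 88 tested mass-sided members had 8 higher and 14 lower, with a median of -0.28, and the 22 between had 0 higher and 3 lower, with a median of 0.00. Gene models passing the same rule had 91 of 417 higher and 20 lower, with a median of 0.64, and lncRNA models above the 8-cell ceiling had 24 of 1089 higher and 24 lower. The median over all features was 0.02. These counts are set side by side and the differences between the sets were not tested.

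Among the called members, highest in Vegt MO relative to Otx1 MO was lncrna_single_sw_00091241, a mass-sided member. Vegt MO masses had 9.75 and 14.4 TPM, Otx1 MO masses 0.32 and 2.19, Double MO masses 2.46 and 7.10, and uninjected ones 4.93 and 24.1. The 2 MO groups did not overlap and the uninjected values straddled the Vegt MO ones. The log2 ratio was 3.53 ± 0.60 (SE, n = 2 per group; edgeR with the block, adjusted p = 0.0090; 0.49 without). Next, lncrna_single_n_00174322 read 7.74 and 10.5 TPM for Vegt MO, 0.22 and 1.63 for Otx1 MO, 5.03 and 5.77 for Double MO, then 11.8 and 5.39 uninjected, so that Otx1 MO was the lowest group. Its log2 ratio was 3.34 ± 0.63 (SE; edgeR with the block, adjusted p = 0.018; 0.30 without).

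Lowest in Vegt MO relative to Otx1 MO among the called members was lncrna_single_sw_00203945, whose Vegt MO masses had 6.45 and 0.95 TPM, Otx1 MO masses 33.1 and 6.68, Double MO masses 15.2 and 4.95, and uninjected ones 16.7 and 3.39. In every group the first replicate was the higher, and within each replicate Vegt MO was the lowest and Otx1 MO the highest. The log2 ratio was -2.40 ± 0.33 (SE; edgeR with the block, adjusted p = 0.0037; 0.67 without). Vegt MO was again the lowest and Otx1 MO the highest within each replicate for lncrna_single_sw_00253823, at 17.6 and 7.43 TPM for Vegt MO, 50.7 and 22.1 for Double MO, 66.8 and 19.1 uninjected, then 87.6 and 41.9 for Otx1 MO. Its log2 ratio was -2.33 ± 0.19 (SE; edgeR with the block, adjusted p = 0.00035; 0.42 without).

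**Figure D4:**
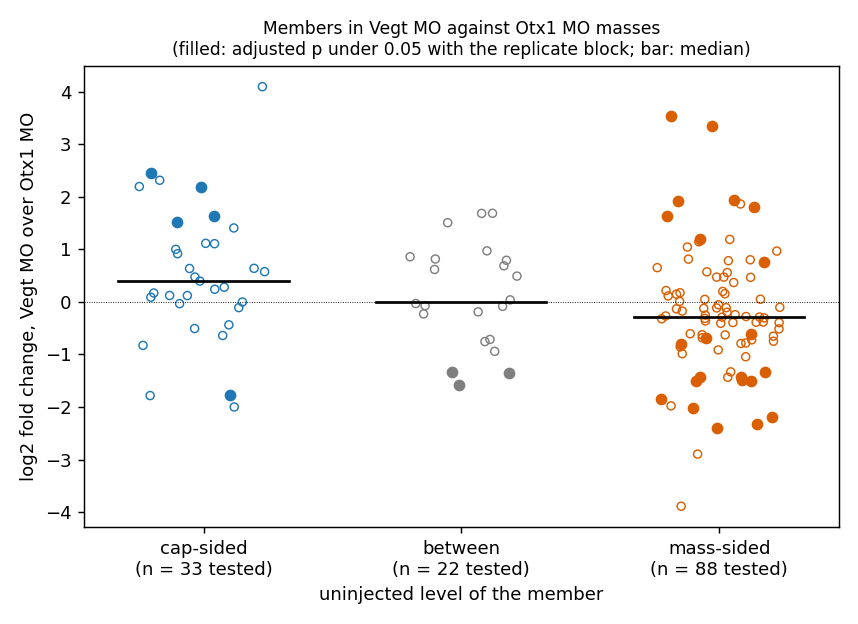
Fitted log2 fold change of Vegt MO over Otx1 MO masses for each of the 143 tested members, by tissue side, with filled points for the 30 past the threshold in the fit with the replicate block and bars at the medians (0.39, 0.00 and -0.28). Filled points lie in both directions among mass-sided members, 8 above and 14 below 0.

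Few members passed the threshold between Double MO and Vegt MO masses, with 2 libraries per group. Double MO against Vegt MO masses gave 4 higher and 2 lower of 143 with the block, or 4.20%, and 4.11% of all features were called, so the members' share was near the background. Without the block 0 members were called by edgeR (8 at an unadjusted p under 0.05, against 6.07% of all features) and 0 by DESeq2, which called 0.793% of all features. Leaving out either Vegt MO library brought the 6 to 0, and leaving out the first or second Double MO library to 1 or 2. The 4 higher were all mass-sided and included lncrna_single_sw_00253823, whose values stand above (log2 ratio 1.47 ± 0.19, SE; edgeR with the block, adjusted p = 0.0074; 0.85 without). Another was lncrna_single_sw_00201314, at 8.55 and 16.1 TPM in Vegt MO and 19.2 and 48.1 in Double MO. Uninjected masses had 23.4 and 42.9 TPM of it and Otx1 MO masses 24.04 and 41.1, so Vegt MO was the lowest group in both replicates.

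The 2 lower were lncrna_single_sw_00012177, at 23.2 and 35.4 TPM in Vegt MO and 6.10 and 14.4 in Double MO, and lncrna-candidate-sw-56580, at 9.16 and 5.01 and at 4.31 and 1.70. For the first of these, Otx1 MO had 7.65 and 9.91 TPM and uninjected masses 15.4 and 13.1, so Vegt MO was the highest group. Double MO against Otx1 MO gave 0 of 143 members with and without the block (edgeR), with 0.547% of all features called with it. At an unadjusted p under 0.05 stood 28 members with the block, against 7.51% of all features, and 6 without it, against 2.3%. DESeq2 called 0 members without the block, among 0.313% of all features, and 3 with it, among 1.32%. These comparisons share the Vegt MO, Otx1 MO or Double MO libraries with the one before.

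Knockdown against uninjected masses can be tested for the 69 members whose cap level alone would have placed them among the 150, since mass values did not choose them. Of these, 63 had enough counts in masses. With the block, Vegt MO gave 1 higher and 3 lower (2.63% of all features called), Otx1 MO 0 higher and 1 lower (1.67%) and Double MO 2 higher and 3 lower (6.98%). Without it edgeR called 0 in each, where 0.0123%, 0% and 0.0615% of all features were called. At an unadjusted p under 0.05 stood 8, 9 and 6 of them, against 5.38%, 5.08% and 8.82% of all features. DESeq2 called 1 in each, among 1.22%, 0.449% and 1.87% of all features. All 3 comparisons share the 2 uninjected libraries. The counts moved with single libraries: for Vegt MO 0 without its second replicate, 1 without its first and 8 without the second uninjected library. For Otx1 MO they were 0 without either of its own replicates or the second uninjected one, and 12 without the first uninjected one. For Double MO they were 1 and 3 without its first and second replicates, and 8 and 3 without the first and second uninjected libraries.

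Higher with both Vegt MO and Double MO was lncrna_single_sw_00238724, from 9.73 and 6.39 TPM in uninjected masses to 48.1 and 33.1 in Vegt MO and 87.7 and 28.4 in Double MO. Otx1 MO masses had 37.1 and 14.5 TPM, also above both uninjected values. The log2 changes were 2.33 ± 0.35 for Vegt MO and 2.59 ± 0.36 for Double MO (SE, n = 2 per group; edgeR with the block, adjusted p = 0.0093 and 0.0047; 0.58 and 0.34 without). In caps the same member stayed between 4.04 and 15.2 TPM in all 16 libraries. The other call for Double MO was lncrna_single_n_00170483, at 1.58 and 1.01 TPM uninjected and 7.48 and 3.05 with Double MO (log2 change 1.84 ± 0.42, SE; edgeR with the block, adjusted p = 0.035; 0.42 without). With Vegt MO it read 5.14 and 2.58 TPM and with Otx1 MO 1.55 and 1.95.

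Of those that fell, lncrna_single_sw_00249699 went from 71.2 and 68.7 TPM uninjected to 25.6 and 25.5 in Vegt MO, 45.3 and 38.4 in Double MO and 37.4 and 58.0 in Otx1 MO. Its Vegt MO replicates were almost equal and lay under all other mass libraries (log2 change -1.49 ± 0.22, SE; edgeR with the block, adjusted p = 0.0074; 0.26 without). The abundant lncrna_single_sw_00247476 went from 370 and 368 TPM to 205 and 225 in Vegt MO and 220 and 286 in Double MO (for Vegt MO log2 -0.82 ± 0.13, SE; edgeR with the block, adjusted p = 0.012; 0.62 without). Otx1 MO masses had 232 and 293 TPM of it, also below both uninjected values. With Otx1 MO the 1 call was lncrna_single_sw_00238390, from 48.3 and 205 TPM to 16 and 33.9 (log2 -2.29 ± 0.36, SE; edgeR with the block, adjusted p = 0.035; 0.93 without). In Vegt MO it read 59.8 and 109 TPM, and in Double MO 13.99 and 60.1.

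Counts over all members tested in masses, those just tested included, are description, since mass levels helped to choose many of them. Over all 143, Vegt MO gave 1 higher and 13 lower than uninjected with the block, Otx1 MO 0 and 4, and Double MO 2 and 11, where 2.63%, 1.67% and 6.98% of all features were called. Without the block edgeR called 0 in each, where 0.0123%, 0% and 0.0615% of all features were called. At an unadjusted p under 0.05 stood 17, 17 and 13 members, against 5.38%, 5.08% and 8.82% of all features. DESeq2 without the block called 2, 2 and 3, among 1.22%, 0.449% and 1.87% of all features. The leading mass RNA, lncrna_single_sw_00264980, had 1304 and 640.4 TPM uninjected, 616 and 342 with Vegt MO, 789 and 684 with Otx1 MO, then 798 and 504 with both. The leading cap RNA, lncrna_single_sw_00158769, read 98.9 and 75.2 TPM in masses with Otx1 MO, 79.6 and 35.8 with Double MO, 13.7 and 31.6 with Vegt MO, then 18.3 and 14.8 uninjected. The Otx1 MO and uninjected libraries did not overlap, but the change of 2.26 ± 0.54 on the log2 scale did not pass the threshold (SE; edgeR, adjusted p = 0.10 with the block and 0.84 without).

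Many members differed between the replicate numbers. This comparison sets 8 libraries against 8 in caps and 4 against 4 in masses, where a treatment comparison sets 2 against 2, so their counts are not on the same footing. It also holds the uninjected and 500 ng vegt libraries that chose the members, and a mean of 2 can admit a member with 1 very high replicate, so the values are a description. In caps, 50 of 121 tested members were higher and 27 lower in replicate 2 than in replicate 1 over the 8 groups (edgeR, adjusted p under 0.05), or 63.6%, near the 66.7% of all features called. In masses, 25 of 143 were higher and 48 lower, or 51.05%, where 37.7% of all features were called. The median absolute log2 difference was 0.64 for members and 0.47 for all features in caps, and 0.65 and 0.39 in masses. Over 2-fold differences were seen in 31.4% of members against 20.8% of all features in caps, and in 36.4% against 17.2% in masses. The gap to all features was not tested.

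Some members were nearly replicate-specific. In masses, lncrna_single_sw_00251062 had no reads in any of the 4 libraries of replicate 1, and 79.96, 10.98, 19.2 and 8.39 TPM in uninjected, Vegt MO, Otx1 MO and Double MO of replicate 2. In caps the same member was at 0 in 10 of the 16 libraries and highest, at 28.9 TPM, in the first replicate of 500 ng vegt. The mass levels of lncrna_single_sw_00251712 were 7.08 to 14.9 TPM in replicate 1 and 71.5 to 160 in replicate 2, with no overlap (log2 difference 3.48 ± 0.21, SE; edgeR, adjusted p = 1.8e-05). In caps, where both replicates had 94.0 TPM or more of it, they overlapped.

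In the other direction, lncrna_single_sw_00264981 had 16.1 to 73.1 TPM in replicate 1 of the masses and 2.04 to 15.9 in replicate 2, and lncrna_single_sw_00254035 had 24.03 to 36.1 and 1.74 to 13.3. In caps, lncrna_single_sw_00240844 had 15.5 to 35.8 TPM in replicate 1 and 0 to 5.04 in replicate 2 (log2 difference -3.85 ± 0.63, SE; edgeR, adjusted p = 0.00073). For lncrna_single_n_00089808 the 8 values of replicate 1 lay within 5.78 to 7.57 TPM and those of replicate 2 within 16.9 to 24.9, through all RNA doses (log2 difference 1.85 ± 0.07, SE; edgeR, adjusted p = 9.4e-11). The leading cap RNA also followed the number, with 3550 to 5712 TPM in replicate 1 and 1277 to 1811 in replicate 2.

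**Figure D5:**
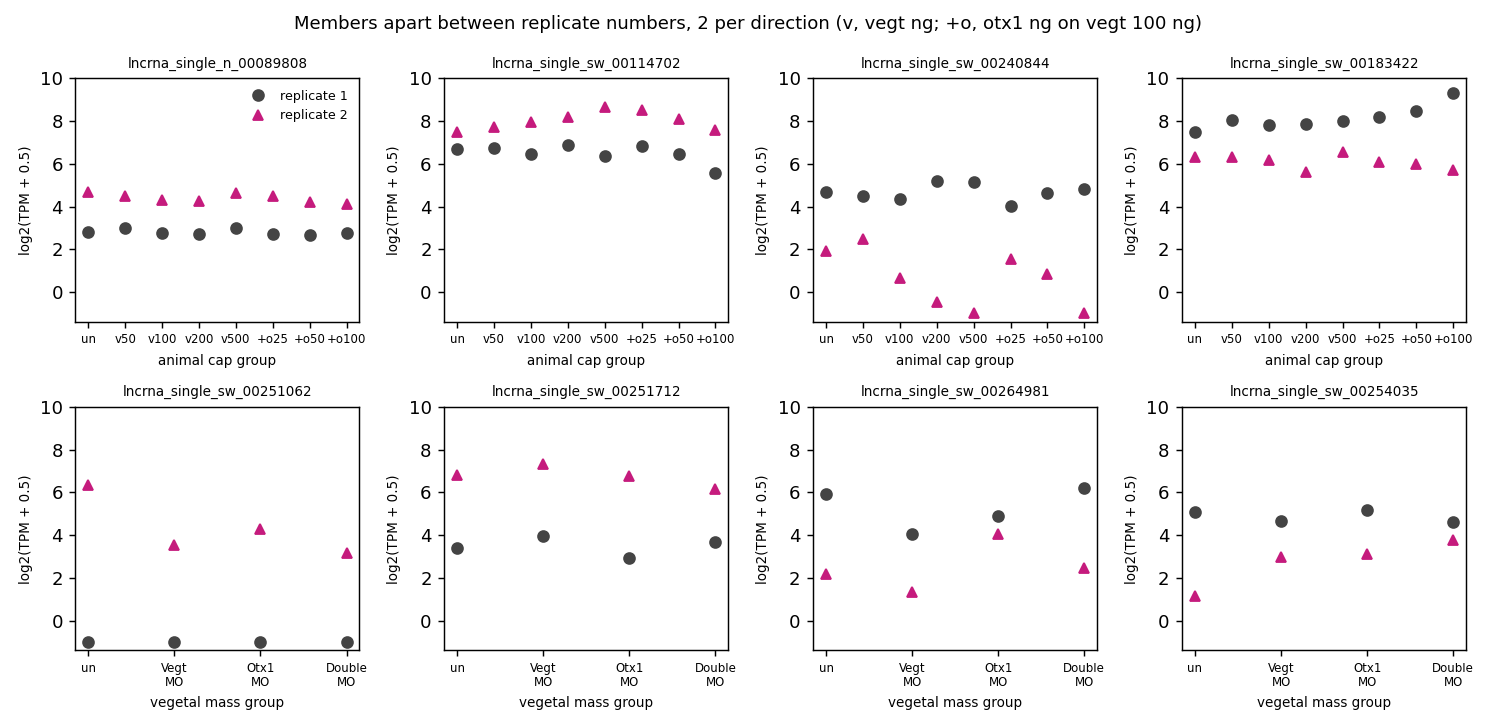
Levels as log2(TPM + 0.5) of 4 members that differed between replicate numbers in animal caps (top row) and of 4 in vegetal masses (bottom row), with circles for replicate 1 and triangles for replicate 2 of each group. They are the 2 per direction with the greatest fitted difference among called members whose replicates did not overlap. In each panel the replicates keep the same order in every group, and lncrna_single_sw_00251062 is at 0 TPM in all 4 mass libraries of replicate 1.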

How the data were processed

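RNA libraries were made by Smart-seq2 cDNA synthesis from polyA RNA and tagmentation, per the labels' protocols, so transcripts without a polyA tail are under-represented and strand is not kept; reads of a lncRNA model that overlaps a gene on either strand cannot be told apart from those of the gene. The authors deposited a table of expected counts and a table of TPM for each of 3 experiments. The submitters' processing notes name Bowtie2 2.2.7 and RSEM 1.2.12. The genome build is not given in the sources used here. Deposited too were 4 peak lists, not used because the lncRNA models have no positions in the tables.

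The TPM served the choice of members and all printed levels. For tests, expected counts were rounded and fitted with edgeR 4.0.16 (R 4.3.3; TMM scaling, filterByExpr, robust quasi-likelihood fit) over all features of a table, with 1 mean per group, and p-values were adjusted by Benjamini-Hochberg over 16360 features in caps and 16269 in masses. The p-values without the block rest on the spread between duplicates, pooled over all groups of a table and with information shared across features. With the block, the shift common to a replicate number is taken out first, so those p-values rest on the spread that remains. Each printed SE is the absolute log2 change divided by the square root of the F statistic of the same edgeR test. It rests on that pooled spread and not on the duplicates of the compared groups alone. The scripts were tested on simulated data. The fit without the replicate block is the main one; the block was added because every same-number correlation of deviations from the group means was over 0.1, which comes from the data and not from the labels. Among members alone these correlations were 0.58 to 0.78 in caps and 0.67 to 0.80 in masses. DESeq2 1.42.0, RLE scaling, no filter, other memberships and leaving out each library were alternatives. The otx1 trend used scores of log2(ng + 25). At most 2 members per direction and comparison were named, those with the greatest change among called members with an average log2 CPM of at least 0 and no overlap between groups, plus the 10 highest, the edges and the most one-sided. The leading cap and mass RNAs were followed through comparisons after their values were seen. Members and lists were chosen with earlier results of these data known.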

Additional observations from a re-analysis of the deposited data

How the results depend on the processing

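Counts of members called are given here for the settings that moved them. Without the replicate block, edgeR called 0 members in each of the 6 treatment comparisons free of uninjected groups, and 0 of the members placed by cap level alone in the 3 knockdowns over uninjected masses, under TMM or RLE scaling, without the filter and with any 1 library left out. The block gave 7 members for 100 ng otx1, 8 for the otx1 trend, 6 for Double MO over Vegt MO, 30 for Vegt MO over Otx1 MO, and 4, 1 and 5 for Vegt, Otx1 and Double MO over uninjected masses. DESeq2 without the block gave 4, 4, 0, 6, 1, 1 and 1 for the same 7 comparisons. Within the block, DESeq2 gave 13 for 100 ng otx1, 15 for the trend, 1 for 200 over 50 ng vegt, 16 for Double MO over Vegt MO, 3 for Double MO over Otx1 MO and 7 for Otx1 MO over uninjected. Without the filter these became 11 for 100 ng otx1, 16 for Double MO over Vegt MO, 3 for Double MO over Otx1 MO and 5 for Otx1 MO over uninjected. Settings that combine the block with another choice were chosen after seeing the data. DESeq2 with the block called 0.41% of all features for 200 over 50 ng vegt and 1.32% for Double MO over Otx1 MO. For its other counts, and for those without the filter or with a library left out, shares of all features are not given. Such counts show how a setting moved the number, and not whether members were called more often than other features.

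With the block and 1 library left out, counts ran from 0 to 8 for 100 ng otx1, 0 to 11 for the trend, 0 to 2 for Double MO over Vegt MO, 0 to 1 for Double MO over Otx1 MO and 3 to 22 for Vegt MO over Otx1 MO. They ran from 0 to 8, 0 to 12 and 1 to 8 for Vegt, Otx1 and Double MO over uninjected. Both otx1 counts fell to 0 without the second replicate of 100 ng vegt and to 2 without the first, and to 2 and 4 without the first replicate of 100 ng otx1. An 8-cell ceiling of 0.1 TPM left 3 for 100 ng otx1 and 3 for the trend, and gave 2 for Double MO over Otx1 MO. The 100 highest members gave 5 for the trend, 18 for Vegt MO over Otx1 MO and 48 for the mass replicate number. The 300 highest gave 10 for Double MO over Vegt MO, 2 for Double MO over Otx1 MO, 133 for the cap and 115 for the mass replicate number. Fewer or more members set those counts by construction; the cause of the other shifts was not tested. The number left out for a response to 500 ng vegt was 131 with a pseudocount of 0.1 TPM and 30 with 1 TPM. Of 344 alternative values for named members, 247 kept their direction and side of the threshold, 97 lost the threshold and 0 changed sign. These values pool the treatment comparisons with those of the replicate numbers, which set more libraries against each other. With 1 library left out, named members of the replicate numbers mostly kept the threshold, and many of the treatment comparisons lost it. The pooled count therefore does not describe the treatment calls alone. Duplicate libraries and low counts limit what small changes can be seen.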
